A study of Mus musculus with 6 samples.

Results

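Thick ascending limb nuclei of the kidney cortex were chosen by their raw UMI counts (UMIs, unique molecular identifiers, count RNA molecules once each). A nucleus needed 3 or more UMIs of Slc12a1, at most 1 UMI each of Slc12a3 and Slc34a1, and 0 UMIs of Top2a, Flt1 and Nphs1. The rule took 2680 of 61939 kept barcodes (those with 300 or more genes and at most 5% mitochondrial UMIs), out of 64442 barcodes in the files. The 3 knockout libraries gave 683, 361 and 834 of these nuclei, and the 3 control libraries gave 246, 299 and 257. The genes that chose the nuclei are given as a description, with no test.

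Knockout mice were Podocin-Cre Klf4 fl/fl, and control mice were Klf4 fl/fl without the Cre. Both groups were FVB/N. By these genotypes both carried the floxed alleles of Klf4, which encodes a zinc-finger transcription factor. The podocin promoter drives the Cre in podocytes, the filtering cells of the glomerulus, and not in the tubule, so any difference in the thick ascending limb is measured in cells that were not targeted. Nuclear RNA of kidney cortex was counted in single nuclei (10x Chromium), with 3 libraries in each group. The labels give no age, sex, batch or litter, and do not say that each library came from a separate animal, so p-values measure the spread between these libraries.

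The thick ascending limb reabsorbs sodium chloride without water. NKCC2, the cotransporter encoded by Slc12a1, carries sodium, potassium and chloride in from the lumen, and the potassium channel encoded by Kcnj1 returns potassium to the lumen. The resulting voltage drives cations between the cells, through tight junctions with claudin-10 for sodium or with claudin-16 and claudin-19 for magnesium and calcium. The segment also secretes uromodulin (Umod) and epidermal growth factor (Egf), and ends at the macula densa, a plaque of cells that senses salt and signals to the glomerulus.

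The nuclei had the marker genes of the segment. Slc12a1 (ENSMUSG00000027202, chr2:125152505-125230002, + strand, mm10), which chose them, stood at 11220, 14084 and 13207 CPM (UMIs scaled to a fixed library total) in knockout thick ascending limb nuclei and at 13357, 10562 and 13682 CPM in control ones. In all other kept barcodes it stood at 315 to 1239 CPM. Umod, the gene of uromodulin, did not take part in the choice, and stood at 2141, 2343 and 2179 CPM in knockout nuclei and 2457, 1331 and 2885 CPM in control nuclei. In the 6 libraries that was 4.06 to 23.6 times the level in all other kept barcodes. Casr, the calcium-sensing receptor, was 7.71 to 29.9 times and Enox1, which encodes a cell surface oxidase, 7.40 to 31.7 times as high as in those barcodes. Egf, Kng2 (a kininogen) and Tmem207 (a membrane protein) were also higher in the chosen nuclei in each of the 6 libraries, with median ratios of 8.16, 6.01 and 13.9. Lrp2 and Cubn, the endocytic receptors of the proximal tubule, had ratios of 0.17 to 0.48 and 0.30 to 0.62. Kap, another proximal tubule marker, had ratios of 0.61 to 1.65. In knockout 1, control 1 and control 2 it was higher in the chosen nuclei than in the other barcodes.

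**Figure D1:**
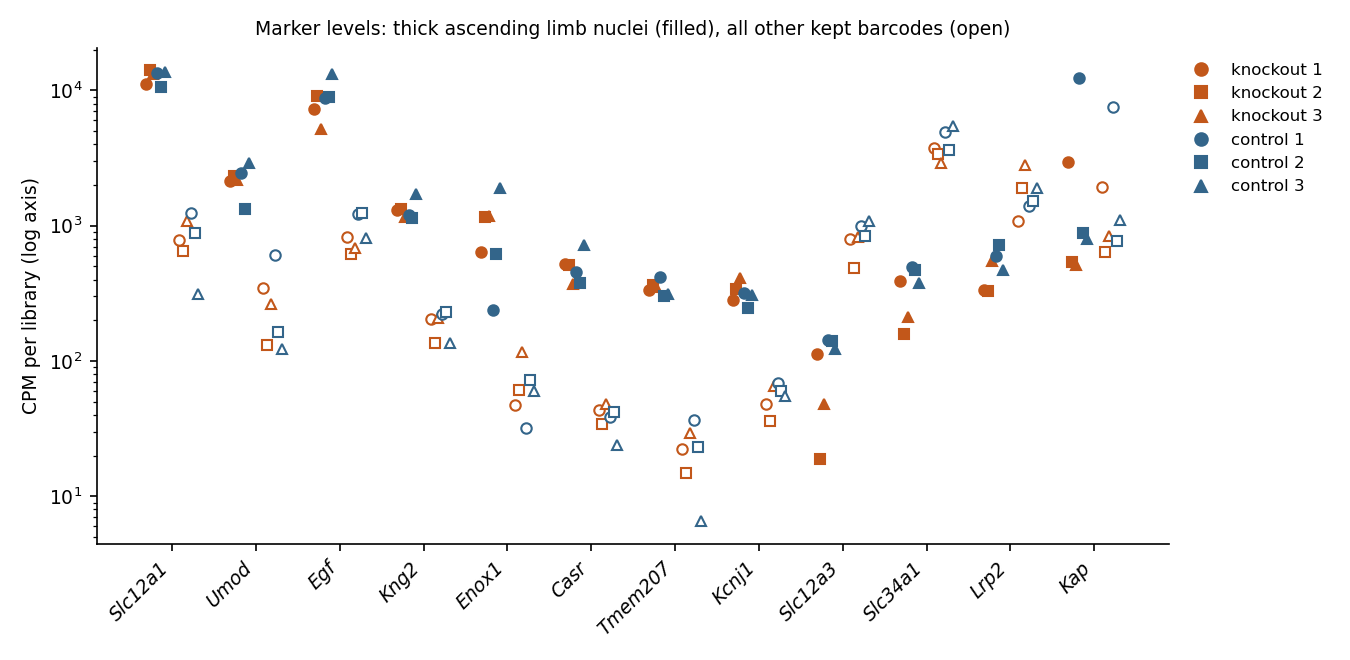
Levels of marker genes per library, in CPM on a log axis, in thick ascending limb nuclei (filled) and in all other kept barcodes (open), with knockout libraries in orange and control libraries in blue. Slc12a1, Slc12a3 and Slc34a1 chose the nuclei. Umod, Egf, Kng2, Enox1, Casr, Tmem207 and Kcnj1 lay higher in thick ascending limb nuclei in each library, while Kap lay at 12402 CPM in control 1 and 2943 CPM in knockout 1, against 510 to 879 CPM in the other 4 libraries.

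RNA of the proximal tubule was also present, unevenly over the libraries. The 20 proximal tubule markers summed to 8105, 3965 and 4883 CPM in knockout thick ascending limb nuclei and to 19545, 8162 and 5118 CPM in control ones. Kap, an androgen-regulated proximal tubule gene, made up 2943, 542 and 510 CPM in knockout nuclei and 12402, 879 and 796 CPM in control nuclei. Conversely, 16.3, 9.77 and 17.0% of knockout proximal tubule nuclei and 31.6, 27.6 and 12.02% of control proximal tubule nuclei held a Slc12a1 UMI. The libraries numbered 1 stood apart, with 22069 and 19645 kept barcodes in knockout 1 and control 1, against 3845 to 6064 in the others, and with a median mitochondrial share in these nuclei of 1.39 and 3.43%, against 0.111 to 0.184%. Median UMIs per thick ascending limb nucleus were 1134, 688 and 807 in the knockouts and 1312, 769 and 961 in the controls, and the sums analysed below held 262924 to 924440 UMIs per library. Of the chosen nuclei, 23 had a barcode that occurs in another library too, and 93 had one of the highest doublet scores.

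The rule itself took different parts of the candidates in each library. Of barcodes with 3 or more Slc12a1 UMIs, 73.3, 53.2 and 45.1% in the knockouts and 91.6, 61.5 and 43.2% in the controls had more than 1 Slc34a1 UMI and were left out. In control 1 that was 3065 of 3347 barcodes. Just inside the threshold, 106 nuclei with 3 Slc12a1 UMIs had a Umod UMI in 50.9% of cases, and just outside it, 218 barcodes with 2 Slc12a1 UMIs that met the other conditions had one in 37.2%. Of the 2441 nuclei with 5 or more Slc12a1 UMIs, 80.0% had one.

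Klf4 was read rarely in these nuclei. There were 8, 0 and 3 UMIs in the knockouts and 0, 0 and 0 in the controls, which is 5.35 CPM over the knockout nuclei. Setting the control sum to its detection limit of 3 UMIs (3.30 CPM) and taking the knockout count as exact, the knockouts were at least 1.62-fold higher. With so few knockout UMIs, their own counting error is not in this bound. It became 0.963 without control 1 and could not be given without knockout 1, which left 3 UMIs. The deleted exons are not given in the labels, and counted reads may lie outside them, so the gene checks no label here.

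The share of thick ascending limb nuclei varied more among libraries of 1 genotype than between genotypes. They made up 3.09, 7.10 and 13.8% of kept barcodes in the knockouts and 1.25, 7.78 and 4.91% in the controls, so the groups overlapped. The means were 7.98 ± 5.38% and 4.65 ± 3.27% (SD, n = 3 each), a difference of 3.34 percentage points (two-sided exact permutation p = 0.5, where 3 against 3 cannot go below 0.1). Without 1 library the difference ran from 0.453 points without knockout 3, through 1.64 points without control 1, to 5.78 points without knockout 1. Exact Clopper-Pearson 95% intervals, which cover counting error only, ran from 12.9 to 14.6% in knockout 3 and from 1.10 to 1.42% in control 1. Counted among barcodes with at most 1 Slc34a1 UMI, the shares were 16.3, 19.2 and 29.1% in the knockouts and 22.6, 21.8 and 17.7% in the controls, with means of 21.6 and 20.7% (exact permutation p = 0.9). Control 1 was the lowest library over all kept barcodes and the second highest over the barcodes that the Slc34a1 limit leaves.

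**Figure D2:**
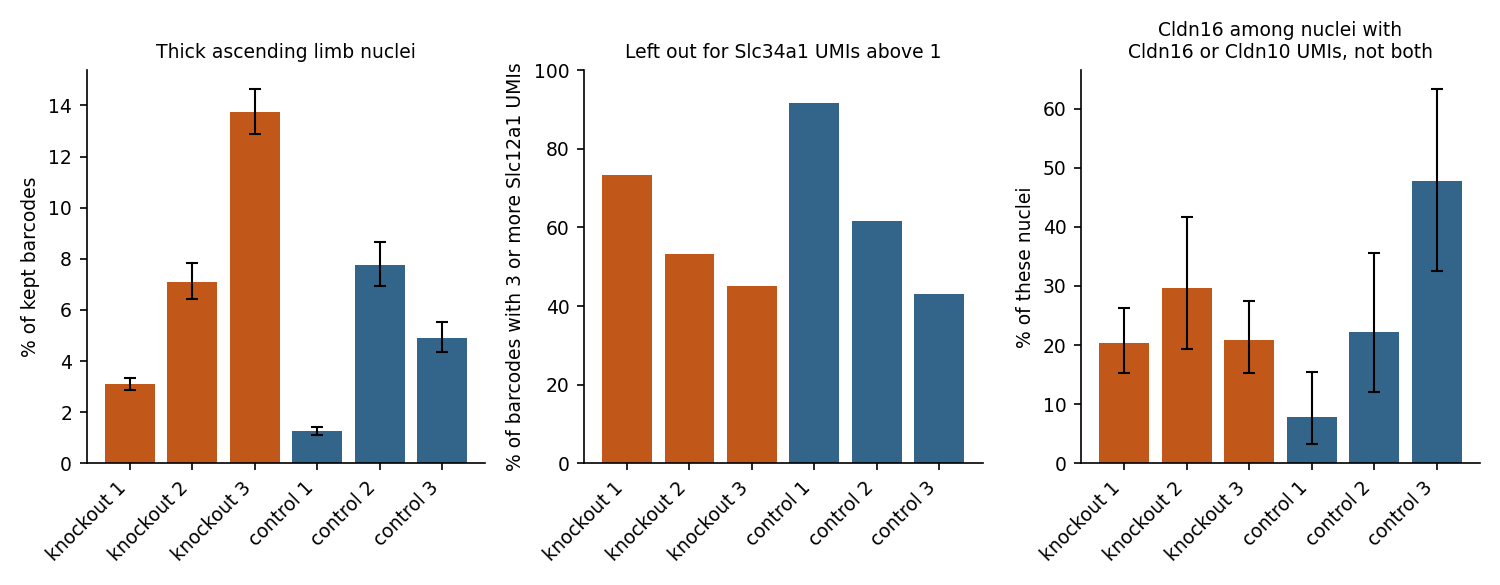
Bars per library, knockout in orange and control in blue. Left, thick ascending limb nuclei in % of kept barcodes. Middle, the % of barcodes with 3 or more Slc12a1 UMIs that were left out for more than 1 Slc34a1 UMI, which reaches 91.6% in control 1. Right, the % with Cldn16 among nuclei with UMIs of only Cldn16 or only Cldn10, which spans 7.78 to 47.7% in the controls. Error bars are exact Clopper-Pearson 95% intervals and cover counting error only.

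Within the segment, claudins divide the tight junctions. Cldn16, a claudin of the magnesium and calcium path, has 1 start region in RefSeq, and Cldn10 has 2, whose products are known as claudin-10a and claudin-10b, a claudin of the proximal tubule and one of the thick ascending limb. The counts here are per gene and do not tell those starts apart. The 3 start regions are shown because Cldn16 and Cldn10 divide the nuclei in what follows, and because the Cldn10 count sums over both of its starts (RefSeq, GRCm38.p6, the mm10 assembly, + strand, 250 bases before and 50 bases from the start on, with the transcribed bases in capitals).
Cldn16, chr16:26462885-26463184: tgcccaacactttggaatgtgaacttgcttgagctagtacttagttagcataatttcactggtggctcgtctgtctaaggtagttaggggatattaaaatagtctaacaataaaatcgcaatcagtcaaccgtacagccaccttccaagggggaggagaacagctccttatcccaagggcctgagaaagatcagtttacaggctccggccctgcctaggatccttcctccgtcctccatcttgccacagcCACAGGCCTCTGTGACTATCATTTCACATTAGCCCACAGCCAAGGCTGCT
Cldn10 first start, chr14:118787621-118787920: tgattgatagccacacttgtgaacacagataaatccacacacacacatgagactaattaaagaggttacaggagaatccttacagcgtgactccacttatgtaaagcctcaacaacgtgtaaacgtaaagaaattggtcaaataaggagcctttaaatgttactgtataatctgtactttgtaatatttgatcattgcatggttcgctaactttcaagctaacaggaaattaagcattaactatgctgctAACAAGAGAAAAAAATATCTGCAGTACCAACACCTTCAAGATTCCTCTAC
Cldn10 second start, chr14:118854700-118854999: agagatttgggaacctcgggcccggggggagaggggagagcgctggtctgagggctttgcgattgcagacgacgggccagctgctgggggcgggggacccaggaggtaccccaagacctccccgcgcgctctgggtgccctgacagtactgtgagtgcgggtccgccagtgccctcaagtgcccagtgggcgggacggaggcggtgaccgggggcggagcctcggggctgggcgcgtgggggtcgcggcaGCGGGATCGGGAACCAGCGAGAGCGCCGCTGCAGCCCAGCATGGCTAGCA
G and C made up 36.0% of the first Cldn10 region, with 4 CG pairs, and 72.0% of the second, with 27 CG pairs. In the Cldn16 region they made up 48.7%, with 5 CG pairs.

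Nuclei with both claudins were a small class. Apart from the macula densa, 145 nuclei held UMIs of Cldn16 and not Cldn10, 522 of Cldn10 and not Cldn16, 24 of both and 1959 of neither. If the 2 genes were read independently in each library, 34.4 nuclei with both would have been counted. Summed over libraries, the knockouts had 13 nuclei against 25.7 so computed, and the controls 11 against 8.74. By library, the knockouts had 10, 0 and 3 against 15.1, 2.94 and 7.66. The controls had 3, 5 and 3 against 3.51, 2.72 and 2.52, so control 1 also fell short. These counts are small, and a difference between the genotypes was not tested. The median depth was 972 UMIs in Cldn16 nuclei and 1144.5 UMIs in Cldn10 nuclei. Cldn16 stood at 27.1 to 90.0 CPM in thick ascending limb nuclei and at 0.67 to 1.76 CPM in proximal tubule nuclei. Cldn10 stood at 130 to 282 CPM in thick ascending limb nuclei, below its 397 to 742 CPM in proximal tubule nuclei, and how much of it is proximal tubule RNA in these nuclei was not tested.

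Cldn16 nuclei had more Egf, Enox1 and Wnk1, and fewer UMIs of many genes that are higher in the proximal tubule. The comparison used the 5 libraries with at least 10 nuclei of each kind, which leaves out control 1 with 7 Cldn16 nuclei, and was made within libraries. Of 651 genes tested, 50 passed an adjusted p of 0.05 in edgeR's quasi-likelihood test (7.68%), 23 higher and 27 lower in Cldn16 nuclei. The members of the pair, Cldn16 and Cldn10, and the genes of the rule were given no test.

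Egf, the growth factor that the distal nephron releases, stood at 11588, 14080, 7025, 13492 and 17668 CPM in Cldn16 nuclei of knockouts 1, 2 and 3 and controls 2 and 3, against 5623, 7197, 2815, 8312 and 13999 CPM in Cldn10 nuclei of the same libraries. It was higher in Cldn16 nuclei in each of the 5 libraries (log2 fold 0.85 ± 0.12 SE, adjusted p = 4.1e-05, edgeR). Enox1 stood at 1392, 1663, 2706, 624 and 3060 CPM in Cldn16 nuclei and 262, 498, 622, 717 and 1791 CPM in Cldn10 nuclei, higher in 4 of 5 libraries (log2 fold 1.57 ± 0.24, edgeR adjusted p = 9.4e-05). Wnk1, a kinase that governs the chloride cotransporters, stood at 985, 1604, 1339, 1404 and 2775 CPM against 509.8, 900, 376, 792 and 1237 CPM, again higher in all 5 libraries (log2 fold 1.13 ± 0.19, edgeR adjusted p = 0.00031). Egf, Enox1, Wnk1 and Slc25a30, a mitochondrial carrier (log2 fold 1.20), passed under each alternative run for this comparison. Cadps2, a gene of secretory vesicle release (log2 fold 1.65), passed under each alternative in which the low-count filter let it be tested. Wnk1 stood at 4923 CPM in distal convoluted tubule nuclei and 875 CPM in thick ascending limb nuclei, as means over the 6 libraries.

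Further genes were higher in Cldn16 nuclei and depended on the settings. They were Itpr2 (a calcium release channel, log2 fold 1.29), Tmem207 (1.22), Gpc5 (a glypican, 1.04), Casr (0.99), Stk32b (a kinase, 0.91), Magi1 (a junction scaffold, 0.79), Fxyd2 (the gamma subunit of the sodium pump, 0.74), Kng2 (0.61) and Ank3 (a membrane anchor, 0.51). Casr, the receptor through which calcium acts on this segment, was higher in 3 of 5 libraries and had an adjusted p of 0.016 in edgeR, which became 0.36 without knockout 1 (0.00094 to 0.36 over the alternatives). Over all 651 genes 7.68% were called, 23 of them higher. Of the lists for this segment, the tight junction and divalent ion list had 2 of 3 tested members called higher (Tmem207 and Casr), and the list of identity and secreted proteins had 3 of 14 higher (Egf, Enox1 and Kng2) and 2 lower (Ptger3 and Esrrg). The salt transport list had 1 of 7 higher (Fxyd2), and the salt transport regulators 1 of 8 higher (Wnk1) and 1 lower (Ptger3), and with so few members tested these shares are not read as a result about the lists.

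Slc8a1, the sodium-calcium exchanger and a member of the distal convoluted tubule markers, was lower in Cldn16 nuclei in 4 of 5 libraries, at 172, 772, 219, 702 and 245 CPM against 288, 2892, 751, 2177 and 195 CPM in Cldn10 nuclei (log2 fold -1.42 ± 0.26, edgeR adjusted p = 0.00078). Its mean level was 14960 CPM in distal convoluted tubule nuclei and 589 CPM in thick ascending limb nuclei, while the distal convoluted tubule markers, Slc8a1 among them, summed to 2302 CPM in Cldn16 nuclei and 2263 CPM in Cldn10 nuclei. The part of distal convoluted tubule RNA in this difference was not tested. Ptger3, a prostaglandin E receptor that is 51.8 times as high in thick ascending limb as in proximal tubule nuclei, was lower in 4 of 5 libraries, at 188, 238, 465, 702 and 122 CPM against 432, 594, 1390 and 445 CPM in knockouts 1, 2 and 3 and control 2 and 749 CPM in control 3 (log2 fold -1.26 ± 0.29, edgeR adjusted p = 0.0076). Among nuclei with no Slc34a1 UMI its log2 fold was -1.97 (edgeR adjusted p = 7.9e-05, and 6.1e-05 to 0.14 over the alternatives). Gramd1b, which encodes a cholesterol transfer protein, was the lowest by fold (log2 fold -1.83) and was higher in Cldn10 nuclei of 4 libraries, but lower in those of control 3.

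The remaining genes that were lower in Cldn16 nuclei included Slc27a2 (a fatty acid transporter, log2 fold -1.32), Cyp7b1 (-1.35), Them7 (-1.41), Pter (-1.12), Acsm2 (a fatty acid ligase, -1.03), Fnip2 (-0.98), Chpt1 (-0.86), Atp11a (-0.82) and Ghr (the growth hormone receptor, -0.67). Cyp7b1 was lower in 3 of 5 libraries and higher in controls 2 and 3 (468 and 122 CPM against 173 and 32.6 CPM in Cldn10 nuclei). Of the 27 lower genes, 19 had a higher mean CPM in proximal tubule nuclei than in thick ascending limb nuclei, while this held for 0 of the 23 higher genes and for 248 of all 651 tested. The proximal tubule markers summed to 6156 CPM in Cldn16 nuclei and 10076 CPM in Cldn10 nuclei, and the part of this RNA in the lower genes was not tested. With nuclei free of Slc34a1 UMIs, 23 genes passed, 20 of them among the 50. Without knockout 1, which gave 45 of the Cldn16 nuclei, 5 genes passed (Egf, Enox1, Wnk1, Slc25a30 and Slc8a1).

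**Figure D3:**
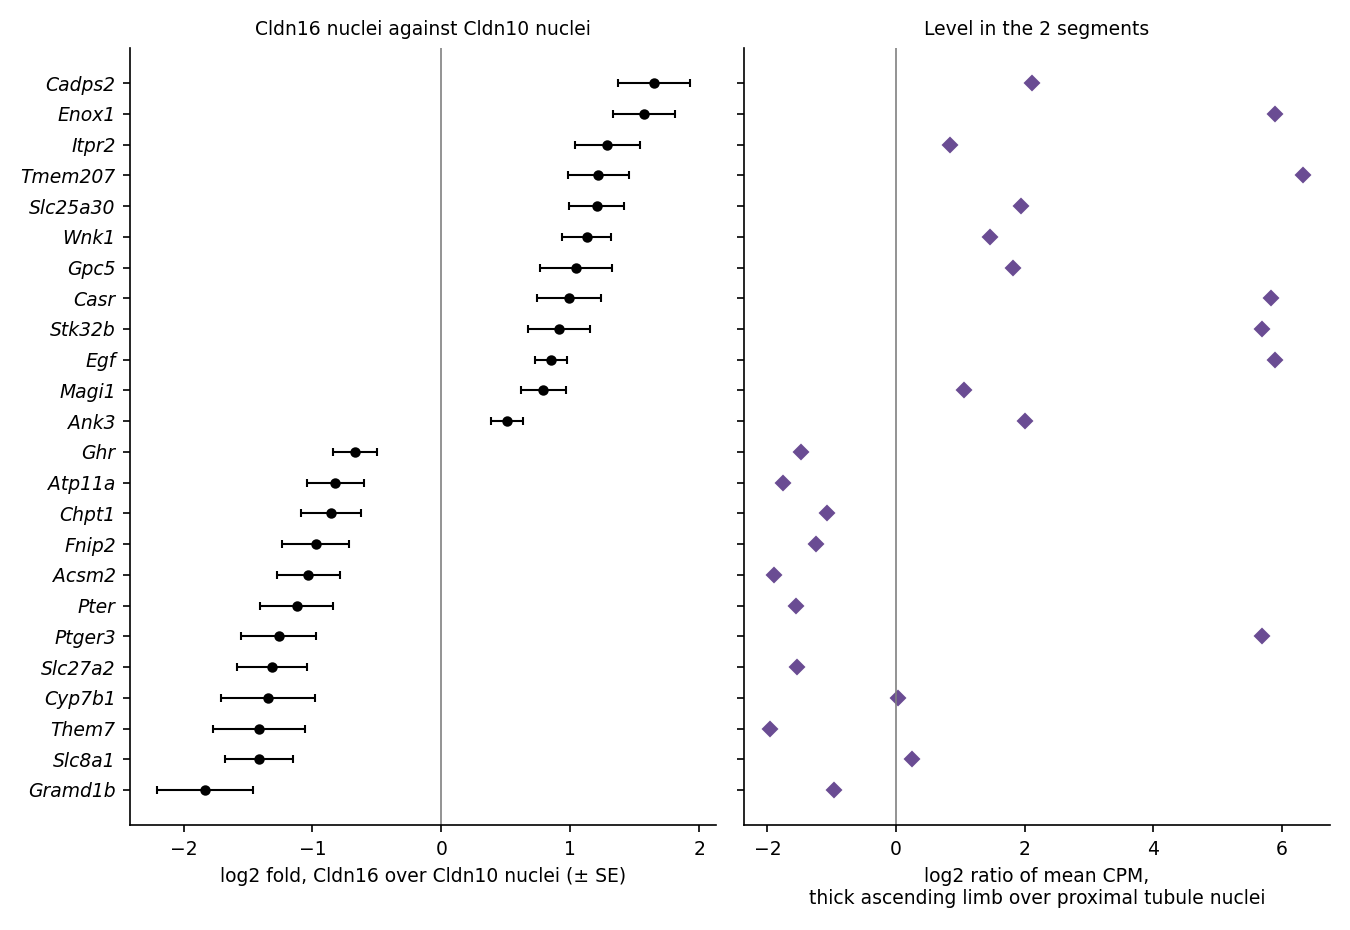
The 12 genes with the smallest p in each direction between Cldn16 and Cldn10 nuclei. Left, the log2 fold of Cldn16 over Cldn10 nuclei with its SE, over 5 libraries. Right, the log2 ratio of mean CPM in thick ascending limb over proximal tubule nuclei, where the higher genes all lie above 0 and Ptger3, Slc8a1 and Cyp7b1 are the lower genes shown that also do.

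The Cldn16 share did not separate the genotypes. Of nuclei with UMIs of 1 of the 2 genes, those with Cldn16 made up 20.4, 29.6 and 20.9% in the knockouts and 7.78, 22.2 and 47.7% in the controls. The means were 23.6 ± 5.18% and 25.9 ± 20.2% (SD, n = 3 each, exact permutation p = 0.8), and the controls spanned the range of the knockouts. Control 3 decided the sign: without it the difference of -2.31 percentage points became 8.60.

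Macula densa nuclei, set apart by 2 or more UMIs of Nos1, the neuronal nitric oxide synthase of these cells, were rare. There were 5, 4 and 6 in the knockouts and 1, 5 and 9 in the controls, or 30 in all. They made up 0.732, 1.11 and 0.719% of thick ascending limb nuclei in the knockouts and 0.407, 1.67 and 3.50% in the controls, with means of 0.853 ± 0.221% and 1.86 ± 1.56% (SD, n = 3 each, exact permutation p = 0.4). The difference of -1.01 percentage points became -0.186 without control 3 and -1.73 without control 1. No library reached 10 such nuclei, so levels are given as sums over the 6 libraries, with exact 95% intervals that cover counting error only and no test between cells.

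Nos1 chose these nuclei, and Robo2 and Pappa2, known from the macula densa, were high in them. Robo2, a guidance receptor, had 188 UMIs in macula densa nuclei, or 4973 CPM, against 121 CPM in the other thick ascending limb nuclei, a ratio of 41.0 (34.2 to 49.1). Pappa2, a protease that frees insulin-like growth factors, stood at 2328 CPM against 23.2 CPM, a ratio of 100.3 (72.3 to 139.7). Both were higher in macula densa nuclei in each of the 6 libraries. Ptgs2, the cyclooxygenase that makes the prostaglandins of renin release, had 4 UMIs in macula densa nuclei and 6 in the others, a ratio of 51.7 (10.7 to 218), with UMIs in macula densa nuclei of 3 of the 6 libraries. Sdc4, another member of the list, had a ratio of 0.84 (0.23 to 2.18) and was lower in macula densa nuclei in 4 of 6 libraries. The members other than Robo2 and Pappa2 had at most 6 UMIs each in these nuclei.

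The macula densa nuclei held fewer UMIs of the secreted proteins. Slc12a1, which each nucleus needed to be chosen, stood at 11270 CPM in macula densa nuclei and 12527 CPM in the others, as a description of the choice. Umod stood at 556 CPM in macula densa nuclei against 2232 CPM, a ratio of 0.25 (0.15 to 0.38), and Egf at 1243 CPM against 7862 CPM, a ratio of 0.16 (0.12 to 0.21). Both were lower in macula densa nuclei in each of the 6 libraries. Enox1 was 2.97 times as high as in the other nuclei (2.41 to 3.63), in 6 of 6 libraries. Thsd4, a protein of the extracellular matrix that was chosen after its values were seen, stood at 2910 CPM against 307 CPM, a ratio of 9.47 (7.70 to 11.6), also in 6 of 6 libraries. The members Oxtr, Avpr1a, Cxcl14 and Nrp2 of the macula densa list had 0 UMIs in these nuclei, whose total of 37801 UMIs sets the depth.

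Between knockout and control nuclei of the whole segment, no gene passed the test. Of 5884 genes, 0 passed an adjusted p of 0.05 in edgeR's quasi-likelihood test without a block (0% called), and 327 had an unadjusted p under 0.05 (5.56%). DESeq2 called 6 of its 20443 genes (Kcnip4, Gm47283, Slc6a15 and Dcdc2a higher, Glt1d1 and Ass1 lower), edgeR without the low-count filter called 110, and leaving out any 1 library called 0. Gm47283 lies on chromosome Y, and the labels give no sex. The median log2 change was -0.00, and 49.7% of genes had a fold above 1. With the replicate number as a block, which assumes that the numbers pair the libraries, 34 genes passed (0.578%), 8 higher and 26 lower in the knockouts. Knockout libraries all lay above controls for 335 genes (5.69%) and all below for 256 genes (4.35%). In bulk sums of this kind, fewer nuclei of a kind and less RNA per nucleus cannot be told apart.

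The libraries of the 2 groups overlapped for the products that define the segment. Umod averaged 2221 ± 107 CPM in knockout nuclei and 2224 ± 802 CPM in control nuclei (SD, n = 3 each; log2 fold -0.05 ± 0.30 SE). Egf stood at 7240, 9060 and 5171 CPM in the knockouts and 8780, 9010 and 13239 CPM in the controls (log2 fold -0.56 ± 0.30, edgeR adjusted p = 0.92), with 1 knockout library above 2 of the controls. Casr stood at 520, 517 and 369 CPM in knockout nuclei and 458, 380 and 720 CPM in control nuclei. Enox1 had 645, 1162 and 1181 CPM in the knockouts, within the span of 239, 616 and 1912 CPM in the controls, and Nos1 had 22.7, 28.2 and 35.6 CPM against 10.8, 68.5 and 112 CPM. In simulated data on 5887 genes of this comparison, 0% of genes changed 2-fold were recovered, against 81% at 4-fold and 90% at 8-fold.

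The 10 genes of smallest p had groups that did not overlap, which a choice by smallest p favours. Over all 5884 genes, the knockouts all lay above the controls for 5.69% and all below for 4.35%. None of the 10 passed in edgeR's test without the block and with the low-count filter. DESeq2 without a block called Glt1d1, Slc6a15 and Dcdc2a of them. Glt1d1, a glycosyltransferase-like gene (chr5:127632262-127709374, + strand), stood at 16.2, 15.7 and 9.83 CPM in knockout nuclei and 94.9, 83.7 and 54.0 CPM in control nuclei (log2 fold -2.54 ± 0.38 SE, edgeR adjusted p = 0.39 without and 0.0090 with the block). Its level in proximal tubule nuclei was 26.4, 15.3 and 13.1 CPM in the knockouts and 211, 212 and 196 CPM in the controls. The groups did not overlap in either segment, and its level in thick ascending limb nuclei was 0.41 times that in proximal tubule nuclei over the 6 libraries.

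Creb5, a transcription factor that binds cyclic AMP response elements, stood at 55.2, 50.1 and 30.7 CPM in knockout nuclei and 2.71, 3.80 and 7.20 CPM in control nuclei (log2 fold 3.24 ± 0.56, edgeR adjusted p = 0.41 without and 0.035 with the block). Dcdc2a, a doublecortin-domain gene from the injury list, stood at 94.1, 159.7 and 99.5 CPM in knockout nuclei against 27.1, 11.4 and 36.0 CPM in control nuclei (log2 fold 2.13 ± 0.39, edgeR adjusted p = 0.41 and, with the block, 0.039). Adamts1, a secreted metalloprotease, stood at 72.5, 53.2 and 34.4 CPM against 10.8, 11.4 and 3.60 CPM (log2 fold 2.54 ± 0.53, edgeR adjusted p = 0.56 and, with the block, 0.032). In each of these 3 genes the lowest knockout library lay above the highest control library, which a choice by smallest p favours (5.69% over all genes). Creb5 and Adamts1 stood low in control nuclei, and a gene can pass the low-count filter through 1 group alone. Creb5 failed that filter, and was not tested, without knockout 1, without both libraries numbered 1 and without the highest doublet scores. It also failed with 5 or more Slc12a1 UMIs, with 0 UMIs of Slc12a3 and Slc34a1, and thinned to 1000 UMIs. Over the alternatives the adjusted p of Dcdc2a ran from 1.2e-05 with no low-count filter to 1.00 without knockout 2, and those of Glt1d1 and Creb5 from 2.3e-05 and 0.00018 to 1.00 under the same settings.

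Slc6a15, a transporter of neutral amino acids, stood at 237, 157 and 192 CPM in knockout nuclei and 59.7, 83.7 and 39.6 CPM in control nuclei (log2 fold 1.65, edgeR adjusted p = 0.41 and, with the block, 0.032). Nrg1, a ligand of the ErbB receptors, stood at 307, 313 and 398 CPM against 182, 118 and 119 CPM (log2 fold 1.21, edgeR adjusted p = 0.56 and, with the block, 0.040). Col18a1, which encodes collagen XVIII of basement membranes, stood at 117, 100.2 and 111 CPM against 48.8, 53.2 and 50.4 CPM (log2 fold 1.07, edgeR adjusted p = 0.57 and 0.11 with the block). The other genes of smallest p were lower in the knockouts: Slc13a3, a dicarboxylate transporter of the proximal tubule (log2 fold -1.52), Ak4, a mitochondrial adenylate kinase (-1.27), and Tef, a transcription factor driven by the circadian clock (-1.06).

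**Figure D4:**
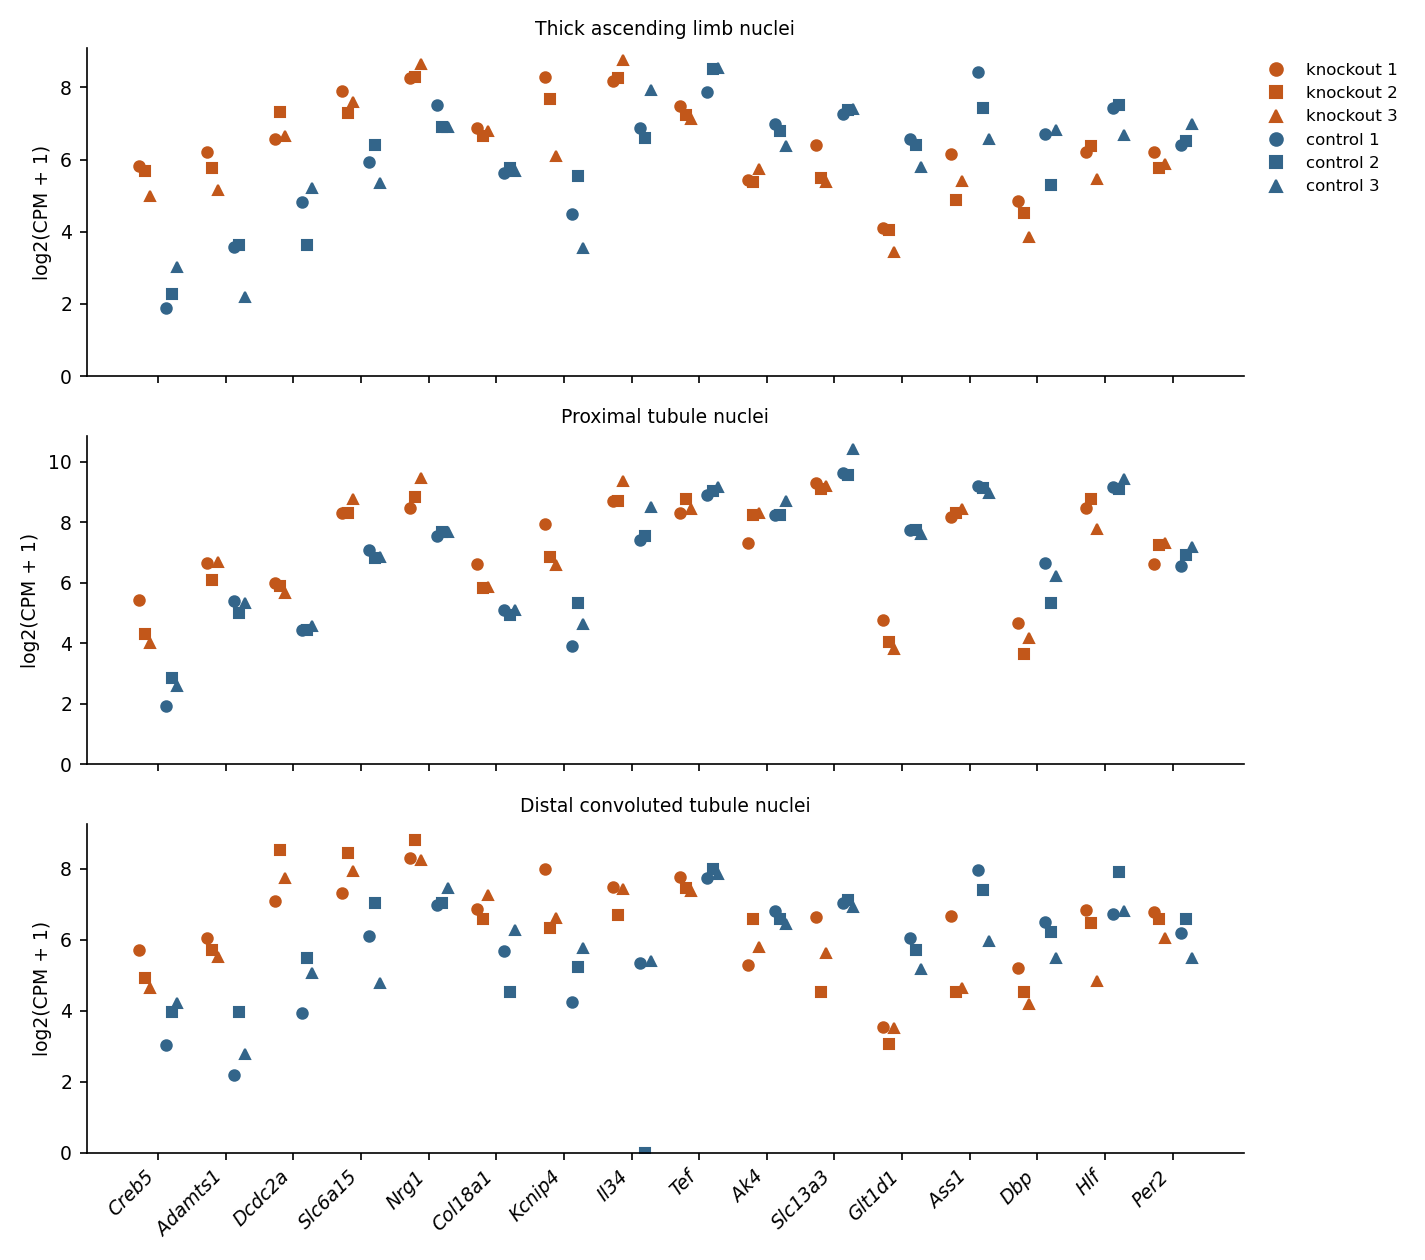
Levels of 16 genes as log2(CPM + 1) per library in thick ascending limb, proximal tubule and distal convoluted tubule nuclei, with knockout libraries in orange left of control libraries in blue. The 10 genes of smallest p are shown with Kcnip4, Il34, Ass1, Dbp and Hlf, which passed with the replicate block, and Per2. Creb5, Dcdc2a and Glt1d1 keep the same order of the groups in all 3 segments.

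With the block, the higher genes were Kcnip4 (a subunit of potassium channels, log2 fold 2.90), Creb5, Adamts1, Dcdc2a, Slc6a15, Gm47283 (on chromosome Y), Nrg1 and Il34 (a ligand of the macrophage receptor CSF1R, 1.19). Kcnip4 stood at 312, 204 and 67.6 CPM in knockout nuclei and 21.7, 45.6 and 10.8 CPM in control nuclei. The 26 lower genes included Cyp4b1, Gpx3, Pck1, Ass1, Glyat, Ggt1, Slc22a6 and Slc13a3, enzymes and transporters of the proximal tubule, and the clock-driven factors Dbp and Hlf. Of these 26, 23 had a higher mean CPM in proximal tubule nuclei than in thick ascending limb nuclei, against 5 of the 8 higher genes and 2401 of all 5884. Cyp4b1, the lower gene of smallest p, stood at 360, 135 and 86.0 CPM in knockout nuclei and 1155, 456 and 299 CPM in control nuclei, which overlap, and in both groups the library numbered 1 was highest. The summed proximal tubule markers given above move with these genes, and their part in the calls was not tested.

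The lists describe the rest of the segment's biology, by counts and medians over the members that passed the low-count filter. A gene can pass that filter through 1 group alone, so these counts are a description and support no direction. Over all 5884 genes tested, 49.7% had a fold above 1 and 50.3% a fold below 1. Of the salt transport list, 13 of 14 members were tested, 4 of them above 1-fold, with a median log2 change of -0.39. Its member of smallest p was Fxyd2, at 1483, 1181 and 1258 CPM in knockout nuclei and 2194, 1343 and 2589.5 CPM in control nuclei (log2 fold -0.69, edgeR adjusted p = 0.85), and Slc4a4, a bicarbonate cotransporter, followed (-0.64). The tight junction and divalent ion list had 12 of 16 tested, 5 above 1-fold, with a median of -0.03, and Pth1r, the parathyroid hormone receptor gene, had a log2 fold of -0.52. The salt transport regulators had 14 of 22 tested and a median of 0.04, led by the mineralocorticoid receptor gene Nr3c2 (-0.54) and Klhl3 (-0.36). Identity and secreted proteins had 22 of 27 tested and a median of -0.04, where Pax8, a kidney transcription factor, stood at 356, 410.3 and 378 CPM in knockout nuclei against 236, 285 and 256 CPM in control nuclei (log2 fold 0.52, edgeR adjusted p = 0.77), and Pou3f3 had a log2 fold of -0.64.

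Among injury genes, Dcdc2a (given above) and Il34 passed with the block, under which 0.578% of all genes passed, and 0 passed in edgeR without it. Of 30 members, 9 passed the low-count filter, some of them through their knockout values alone, so no count of directions and no median is given for this list. The calls with the block are not read as a result about the list. Cp, which encodes the copper oxidase ceruloplasmin, stood at 71.4, 84.6 and 46.7 CPM in knockout nuclei and 24.4, 22.8 and 3.60 CPM in control nuclei (log2 fold 1.87, edgeR adjusted p = 0.69). Members under the low-count filter were not tested: Havcr1, the proximal tubule injury receptor KIM-1, had 76.8, 25.1 and 7.37 CPM in knockout nuclei and 0 UMIs in the 3 control libraries, which puts the knockouts at least 12.5-fold higher, with the control sum at 3 UMIs. Knockout 1 gave most of these UMIs, and without it the bound was 3.74-fold (without control 1, 7.44-fold). Vcam1, an adhesion molecule, had 48.7, 34.5 and 14.7 CPM in knockout nuclei and 0 UMIs in control nuclei, at least 10.0-fold higher, with a bound of 6.15-fold without knockout 1 and 5.95-fold without control 1. In proximal tubule nuclei of the knockouts Havcr1 stood at 54.0, 23.1 and 13.1 CPM and Vcam1 at 54.1, 21.7 and 12.1 CPM, close to those in thick ascending limb nuclei.

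Most tested genes of the circadian clock had a fold below 1. The circadian list had 11 of 18 members tested, 8 of them below 1-fold, against 50.3% of all genes tested, with a median log2 change of -0.33. Of the 11, 4 had an unadjusted p under 0.05, all lower, against 5.56% of all genes. Tef stood at 179.6, 150.3 and 138 CPM in knockout nuclei and 233, 365 and 371 CPM in control nuclei, Dbp at 28.1, 21.9 and 13.5 CPM against 103, 38.0 and 112 CPM, and Hlf at 73.6, 81.4 and 43.0 CPM against 171, 183 and 101 CPM. With the block, under which 0.578% of all genes passed, Dbp and Hlf passed (edgeR adjusted p = 0.039 and 0.035), and Tef did not (0.064). Per2, a repressor of the clock, stood at 73.6, 53.2 and 57.7 CPM in knockout nuclei and 84.1, 91.3 and 126 CPM in control nuclei (log2 fold -0.71). Clock, one of its activators, had a log2 fold of 0.36. The labels give no hour of collection, so time of day and genotype cannot be told apart.

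Further lists cover metabolism, matrix, stress and growth. Mitochondrial energy metabolism had 24 of 32 members tested and 19 below 1-fold, against 50.3% of all genes tested (median -0.18). The list summed to 6687 CPM in control 1, while controls 2 and 3 (4385 and 4606 CPM) lay within the knockouts (4247, 4848 and 4990 CPM). It was led by Ppara, a receptor for fatty acids (-0.65), and Ndufa4 (-1.79). Ndufa4 stood at 258 CPM in control 1 and at 12.5 to 49.8 CPM in the other 5 libraries. Glycolysis and hypoxia had 16 of 22 tested (median -0.19), led by the hexokinase Hk1 (-0.43) and the phosphofructokinase Pfkp (0.64). TGF-beta and matrix genes had 11 of 22 tested (median 0.16), led by Col4a1 (0.69) and Skil (0.54). Immediate early and heat shock genes had 6 of 19 tested (median 0.03), with Klf6 at 1.56 and Hspa8 at -1.70, and the interferon, antigen presentation and chemokine list had 5 of 32 (median 0.67), led by Nfkb1 (0.71) and Birc3 (1.19). The cell cycle list had 2 of 25 tested, Ccnd1 (-0.42) and Ezh2 (0.24), with a median of -0.09, and the macula densa list had 4 of 14 (median -0.26), led by Robo2 (-0.76) and Sdc4 (-0.31).

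Markers of other cells were tested in the same sums. Proximal tubule markers had 20 of 20 members tested, 18 below 1-fold (50.3% over all genes), a median of -0.77 and 6 at an unadjusted p under 0.05 (5.56% over all genes), led by Slc13a3 (-1.52) and Ass1 (-2.12). Distal convoluted tubule markers had 6 of 10 tested and a median of -0.03, led by Calb1 and Tmem52b. Connecting tubule and collecting duct markers had 4 of 12 (median 0.05), podocyte markers 2 of 10 (0.41), endothelial markers 2 of 10 (-0.07), immune markers 1 of 10 (-0.22) and mesangial, mural and fibroblast markers 1 of 10 (0.78). Endothelial markers summed to 129 to 201 CPM in knockout nuclei and 72.0 to 195 CPM in control nuclei, and immune markers to 65.1 to 203 CPM and 122 to 155 CPM.

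**Figure D5:**
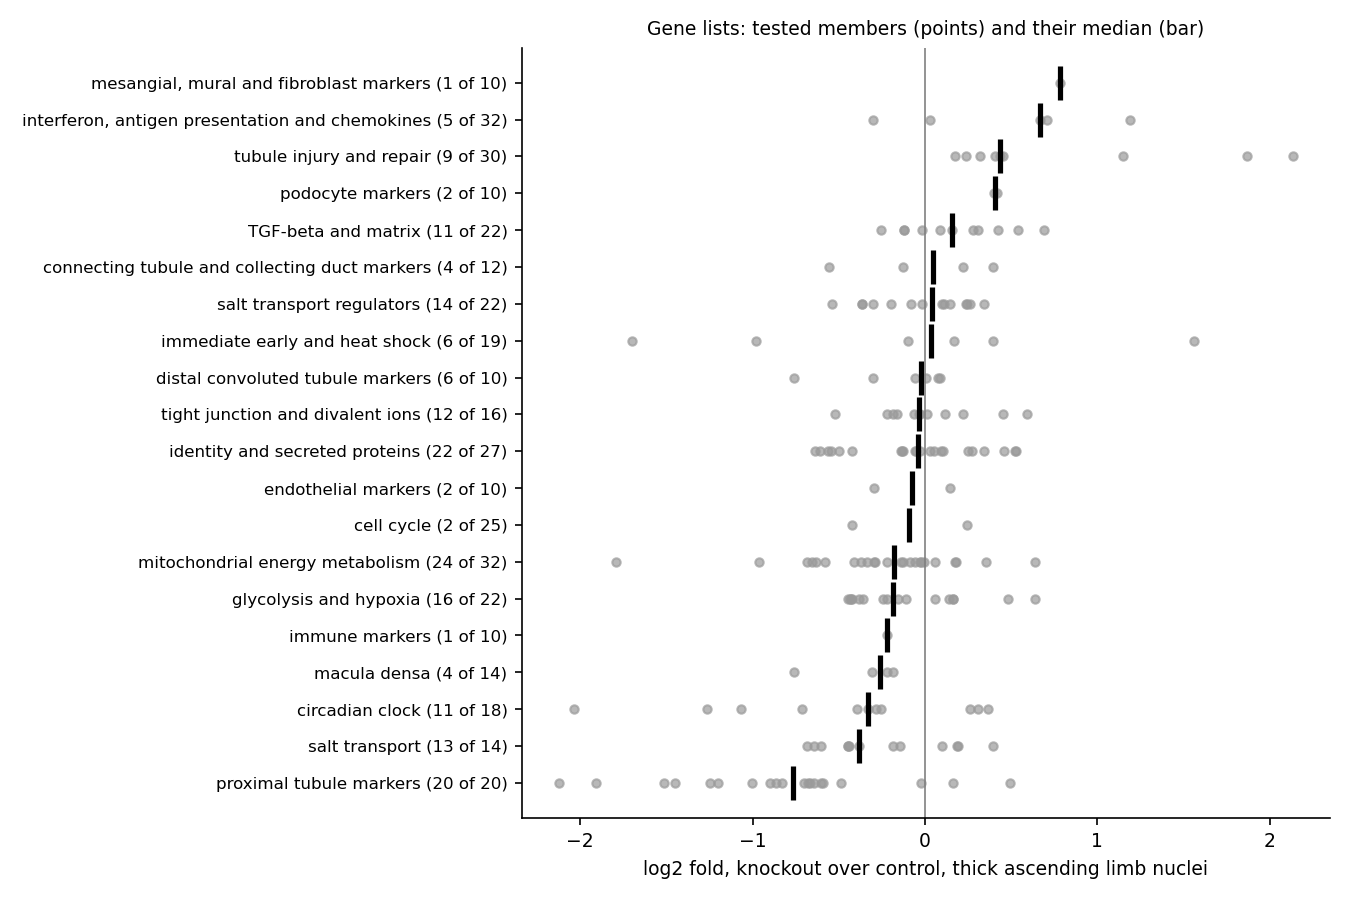
Log2 fold of knockout over control in thick ascending limb nuclei for the tested members of each gene list (points) and their median (bars), with the number tested of all members beside each name. Of the proximal tubule markers, 18 of 20 lie below 0. A gene can pass the low-count filter through 1 group alone, as some of the injury genes shown did, so points and medians support no direction.

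No gene's change was shown to differ between the thick ascending limb and the neighbouring segments. Distal convoluted tubule nuclei (1515) and proximal tubule nuclei (30137) were taken from the same libraries by their own transporters. In edgeR's test of the interaction with the distal convoluted tubule, 0 of 6293 genes passed (0%), 311 had an unadjusted p under 0.05 (4.94%), and DESeq2 called 0. Against the proximal tubule 0 of 11768 passed (0%), 473 had an unadjusted p under 0.05 (4.02%), and DESeq2 called 0. Leaving out 1 library, 10 genes passed against the proximal tubule without knockout 1 and 1 without control 3, and against the distal convoluted tubule 3 passed without knockout 1, 2 without control 1 and 1 without control 2. The genes closest to passing were Thsd4, Tox and Nrxn3 against the distal convoluted tubule (adjusted p = 0.11 for each, edgeR). Against the proximal tubule it was Pfkp (edgeR adjusted p = 0.18), at 127, 191 and 286 CPM in knockout and 138, 126 and 108 CPM in control thick ascending limb nuclei, beside 48.7, 61.3 and 167 CPM in knockout and 13.1, 14.1 and 19.3 CPM in control proximal tubule nuclei.

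The genes of smallest p that are listed here had folds of the same sign in the 3 segments. The nuclei of these segments share libraries, and RNA of other segments is present in them, as given above. The 3 folds of a gene are therefore not independent, and the part of such RNA in them was not tested. Slc6a15 had a log2 fold of 1.65 in thick ascending limb, 1.49 in proximal tubule and 1.78 in distal convoluted tubule nuclei. Nrg1 had 1.21, 1.31 and 1.21, and Col18a1 had 1.07, 1.09 and 1.12 in the same order. Dcdc2a had 2.13, 1.35 and 2.92, and Glt1d1 had -2.54, -3.51 and -2.31. Tef had -1.06 in the thick ascending limb, -0.56 in the proximal tubule and -0.34 in the distal convoluted tubule (edgeR adjusted p = 0.75 for the difference from the distal convoluted tubule).

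A pair of genes was read in control nuclei alone, and was chosen after the values were seen. Zfp68 and A430033K04Rik, a zinc-finger gene and a clone-named gene, each had 0 UMIs in the 3 knockout libraries and 17 UMIs in the 3 control libraries, which is 18.7 CPM. Both lie close together, at chr5:138603652-138619761 (- strand) and chr5:138622859-138652414 (+ strand). Whether these are separate changes was not tested. With the knockout sum set to 3 UMIs (1.46 CPM), each was at least 12.8-fold lower in knockout nuclei, with a bound of 7.06-fold without knockout 1 and 7.75-fold without knockout 3.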

How the data were processed

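The authors deposited raw UMI counts per gene and barcode. The file headers name Cell Ranger 3.1.0, and the labels give the build mm10. Aligner settings and annotation release are not given in the sources used here. Barcodes with 300.0 or more genes and at most 5% mitochondrial UMIs were kept. The nuclei, lists and tests were chosen with earlier results of these data known. Counts were summed per library over the chosen nuclei and tested with edgeR 4.0.16 (R 4.3.3; quasi-likelihood, TMM, low-count filter by group, Benjamini-Hochberg 0.05), with DESeq2 1.42.0 as an alternative. The genes of the rule were given no test. Changes of 2-, 4- and 8-fold were tested on simulated data. CPM is the share of the summed UMIs. Doublets stayed in, and an alternative leaves out the highest Scrublet scores (scanpy 1.11.5, 0.8% per 1000 barcodes). No file column of another sample was used.

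Both groups carry the numbers 1 to 3 in the labels. Deviations from the group means correlated at 0.52, 0.18 and 0.23 across genes within the numbers 1, 2 and 3. Knockout 2 correlated more with control 3 (0.28), and knockout 3 correlated with control 2 at 0.12. Deviations within a group sum to 0. With the libraries numbered 1 standing apart, those numbered 2 and 3 therefore tend to correlate whatever their numbers, which cannot show a pairing. The pairing by number is an assumption, and blocked values are given where they change a call. The labels name nothing that the number stands for. Named genes are the 12 of smallest p per direction past the threshold, filled up to 10 where fewer pass, without clone, mitochondrial, ribosomal or sex-linked names, and in each list up to 4 called members or the 2 of smallest p. Some genes that the rule names are not reported here. All other genes named were chosen after their values were seen or belong to a list. Coordinates are of mm10, from an annotation of that build that holds 31011 of the 31053 gene IDs. Intervals and floors of 3 counts cover counting error only. A floor is set for the group at 0 alone, and the count of the other group is taken as exact.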

Additional observations from a re-analysis of the deposited data

How the results depend on the processing

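Depth limits these results: 30 macula densa nuclei in all and 7 to 45 Cldn16 nuclei per library. The comparison of macula densa with other thick ascending limb nuclei was not run, since no library had 10 such nuclei, and Cldn16 against Cldn10 nuclei was not run without control 1, which that fit never held. Between knockout and control nuclei, 0 genes passed, against 34 with the replicate block, 6 with DESeq2 and 110 with no low-count filter. It remained 0 without any 1 library and under the alternatives on nuclei and depth, including 0 UMIs of Slc34a1 and Slc12a3, thinning to 1000 UMIs and, chosen after seeing the data, Slc34a1 and Slc12a3 at most 20% of the Slc12a1 UMIs.

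Between Cldn16 and Cldn10 nuclei, 50 genes passed, against 23 with 0 UMIs of Slc34a1 (chosen after seeing the data), 18 with DESeq2 (13 shared with the 50), 69 with no low-count filter (31 shared), 5 without both libraries numbered 1, and 5 to 61 without any 1 library (5 without knockout 1, 17 without knockout 2 and 22 without knockout 3). The interaction with the distal convoluted tubule gave 0 genes, against 3 with no low-count filter, 3 without both libraries numbered 1 and 0 to 3 without any 1 library. That with the proximal tubule gave 0, against 17 with no low-count filter, 1 without both libraries numbered 1 and 0 to 10 without any 1 library (10 without knockout 1). The causes were not tested.

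The Cldn16 share differed by -2.31 percentage points, and by -11.4 to 8.60 without any 1 library (8.60 without control 3). Leaving out each library for the bounds of genes at 0 in 1 group was chosen after seeing the data. The replicate block gave the same 3.34, -1.01 and -2.31 percentage points for the shares of thick ascending limb, macula densa and Cldn16 nuclei, and changed no call of these. Log2 changes of single genes that turned sign came close to 0. Between knockout and control nuclei, Slc26a4 (0.13) turned with 0 UMIs of Slc12a3 and Slc34a1, and Slc26a4 (0.0055) with the 20% limit. Without any 1 library, Scnn1b ran from -0.044 to 0.94, Emcn from -0.57 to 0.068, Tek from -0.0037 to 0.31, Skap1 from -0.42 to 0.12 and Cyp2e1 from -3.30 to 0.0082. Between Cldn16 and Cldn10 nuclei, Hk1 turned with no low-count filter (-0.032) and without both libraries numbered 1 (-0.032), and without any 1 library Hk1 ran from -0.032 to 0.40, Itgav from -0.14 to 0.020 and Rora from -0.299 to 0.0037. Of the other single-gene values between the genotypes under alternatives, 1017 kept their side of the threshold and direction and 69 passed newly, and between Cldn16 and Cldn10 nuclei 203 kept both and 96 no longer passed.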
